A study of Mus musculus with 2 samples.

Results

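The genes described here are 10 receptors for growth factors and lipid mediators that are read together as receptors of stroma and glia: *Pdgfra* and *Pdgfrb*, *Fgfr1*, *Fgfr2* and *Fgfr3*, *Lpar1*, *Lpar3* and *Lpar6*, and *Tgfbr2* and *Tgfbr3*. They were taken by their symbols from the 32286 genes listed in the count matrix of a single-nucleus RNA-seq study of the mouse vagus nerve ganglia. All 10 were found, each as 1 row, and all had UMIs. The study compared the transcriptomes of female and male ganglia, and the nuclei came from C57BL/6J mice that carried the Rosa26-floxed-STOP-Cas9-eGFP allele and had AAVrg-Cre, a retrograde virus carrying Cre recombinase, injected into the liver 4 weeks before collection. All animals of both sexes carried the allele, received the virus and ate standard chow. The female library pooled 14 ganglia of 7 mice and the male library 16 ganglia of 8 mice, so there was 1 library of each sex and no replicate. Animals were not tagged within a pool, and the sexes cannot be told apart from the libraries that stand for them.

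The female library held 3791 nuclei and 17435300 UMIs, with a median of 2381 UMIs per nucleus, and the male library held 4923 nuclei and 27529730 UMIs, with a median of 2658. Between them the libraries shared 8 barcode sequences. The nuclei were clustered without the 10 receptors, their pathway genes and 6 sex-linked genes. A cluster was named only where at least 3 markers of a cell type defined it and its leading genes did not go against the name. This gave 684 female and 815 male fibroblast-like nuclei in 4 kinds, 1057 and 1474 glia-like nuclei in 5 kinds, 43 and 43 mural cell-like nuclei, and 677 and 1603 neuron-like nuclei in 8 kinds. Within a class the kinds carry the name of a leading gene, such as Scara5 or Runx2 fibroblast-like nuclei. The barrier fibroblast-like kind was led by solute carriers of meningeal fibroblasts, and the perineurial cell-like kind by genes of the sheath around nerve fascicles. Of the clusters that stayed unnamed, those led by *Col25a1* and by *Prg4* are described too. Granule cell-like and pituitary cell-like nuclei, which carry genes of tissue outside the ganglia, numbered 470 and 67 in the female and 23 and 93 in the male library, and they enter none of the comparisons between classes. They do enter the order of kinds by level and the profiles that are correlated below. The neuron-like class kept its Chrm2 kind, of 9 female and 150 male nuclei, with *Hand2os1*, *Chrm2*, *Tbx20* and *Slc6a2* among its leading genes. Of the 12 neuron markers, 4 were raised at least 1.5-fold in that kind.

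PDGF, FGF and TGF-beta receptors are cell-surface kinases or their co-receptors that pass signals of secreted ligands into mesenchymal cells and glia, whereas LPA receptors are coupled to G proteins and sense lysophosphatidic acid, a lipid made outside cells by autotaxin. In peripheral nerve, PDGF receptor alpha marks fibroblasts and PDGF receptor beta marks pericytes and smooth muscle. *Lpar1* is known from Schwann cells, and TGF-beta receptors are widely used by stromal, vascular and immune cells. Levels below are UMIs of the gene per 10000 UMIs of the nuclei. They are given for the female and then the male library, with exact Poisson 95% intervals that cover counting error only. Levels of one gene are compared between kinds, not with those of another gene, since introns were counted and the genes differ in length.

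The proximal promoters of *Pdgfra*, highest in a fibroblast-like kind, and of *Lpar3*, highest in a kind of neuron, are shown because these receptors stood at opposite ends of the comparison of stroma with neurons. RefSeq on GRCm38.p6 gives the 250 bases before a transcript start of *Pdgfra* as chr5:75152001-75152250 and those of *Lpar3* as chr3:146220711-146220960, both on the plus strand. RefSeq starts the *Pdgfra* gene upstream of this window, at 75151322, and GENCODE starts it after the window, at 75152292. The window therefore does not cover the bases before the first RefSeq start of *Pdgfra*. Capitals mark the motifs searched on both strands, which were the GC box GGGCGG, the CCAAT box CCAAT, the RUNX motif TGTGGT and the AP-1 motif TGANTCA.
Pdgfra: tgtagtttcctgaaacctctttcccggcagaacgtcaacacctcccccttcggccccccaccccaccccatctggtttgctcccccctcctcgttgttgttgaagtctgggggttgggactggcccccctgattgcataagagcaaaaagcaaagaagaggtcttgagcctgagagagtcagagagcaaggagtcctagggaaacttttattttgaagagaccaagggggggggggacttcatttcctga
Lpar3: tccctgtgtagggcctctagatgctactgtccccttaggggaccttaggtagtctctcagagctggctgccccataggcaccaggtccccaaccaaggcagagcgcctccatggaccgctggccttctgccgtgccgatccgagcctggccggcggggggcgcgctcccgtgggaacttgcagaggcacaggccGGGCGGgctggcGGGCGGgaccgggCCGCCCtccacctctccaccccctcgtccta
The *Lpar3* window held 3 GC boxes and 17 CG dinucleotides, and the *Pdgfra* window held none of the 4 motifs and 4 CG dinucleotides. Of the 32851 promoter windows in the table, 32.7% held a GC box, 33.8% a CCAAT box, 14% the RUNX motif and 6.75% the AP-1 motif. The median window held 6 CG dinucleotides. A promoter entry was matched for 7 of the 10 receptors.

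Compared by class, most of the receptors stood higher in stroma and glia than in neurons, but *Lpar3* stood lower and *Fgfr2* and *Lpar6* did not pass 2-fold. The receptors were grouped as receptors of stroma and glia, and chosen with earlier results of these data known. The counts below therefore describe this set and are no test of it. In fibroblast-like over neuron-like nuclei, 7 of 10 receptors were at least 2-fold higher in both libraries, where 13.7% of all 18011 genes tested were. These were *Pdgfra*, *Pdgfrb*, *Fgfr1*, *Fgfr3*, *Lpar1*, *Tgfbr2* and *Tgfbr3*, of which *Fgfr3* rested on 5 and 3 UMIs and had intervals that included no difference. *Lpar3* was at least 2-fold lower, as were 13.2% of all genes. The median log2 fold was 2.17 over the receptors and 0.18 over all genes tested. In glia-like over neuron-like nuclei, 6 of 10 were at least 2-fold higher against 12.6% of all genes, and *Lpar3* was again lower, against 13.6%. The median log2 fold there was 1.57, against 0.13 for all genes. Of the glia, the non-myelinating kinds had 7 receptors higher and 1 lower than in neurons, against 10.8% and 12.2% of all genes, and the Schwann-like kinds had 5 higher and 1 lower, against 12.9% and 14.8%. *Fgfr1* and *Fgfr3* passed in the non-myelinating and not in the Schwann-like kinds, the latter gene on 6 and 7 UMIs. With each nucleus counting the same, *Lpar3* no longer passed 2-fold lower in both libraries, and its log2 folds were -0.80 and -1.21 in fibroblast-like and glia-like nuclei as the mean of the libraries. In that setting *Pdgfra* also lost its call in glia-like nuclei, at a mean log2 fold of 0.84, and 5 receptors were higher there. The label of stroma and glia did not hold for *Lpar3*. Most *Lpar3* UMIs of neurons lay in the Mrgprd kind, with 66 of 677 female and 120 of 1603 male neuron-like nuclei. Levels in the other neurons pooled, given below, had intervals that overlapped those of fibroblast-like and of glia-like nuclei in each library. The lower level in stroma and glia was therefore not seen against neurons outside the Mrgprd kind. *Fgfr2* stood at log2 0.21 and -0.06 in fibroblast-like and at -0.14 and -0.22 in glia-like over neuron-like nuclei, and *Lpar6* at 0.31 and 0.79 and at 0.47 and 0.34.

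**Figure D1:**
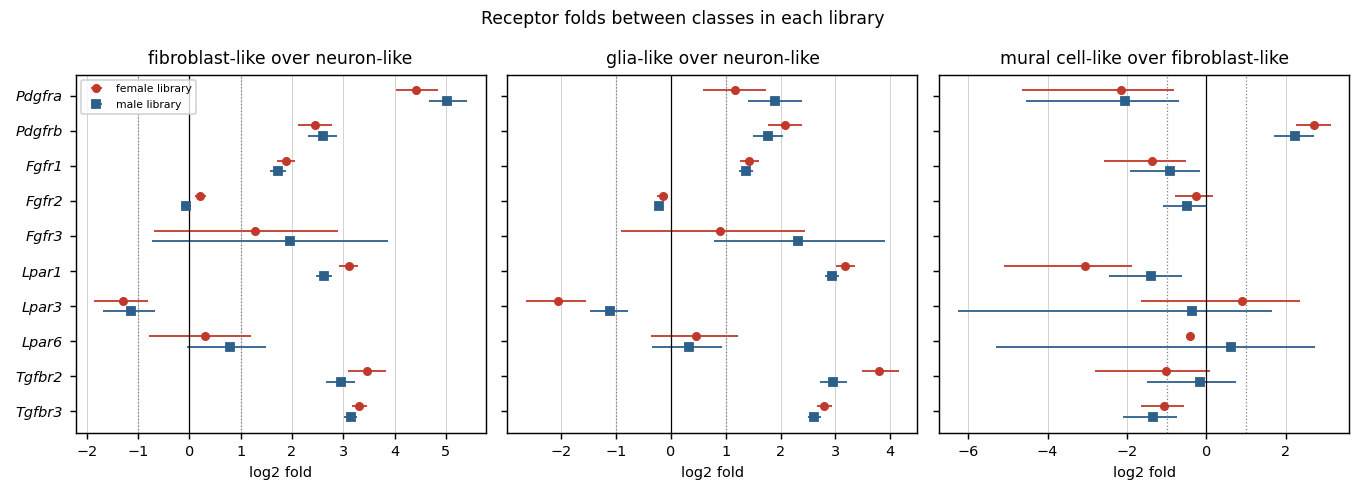
Log2 folds (horizontal axis) of the 10 receptors (vertical axis) between classes of nuclei, with circles for the female and squares for the male library, bars for 95% intervals of counting error (none where a sum was 0) and dotted lines at 2-fold. Fgfr3 is left out where it had under 20 UMIs. Pdgfra lay farthest right in the fibroblast-like over neuron-like panel, at 4.42 and 5.02, and only Pdgfrb lay beyond 2-fold on the right in the mural cell-like panel.

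The PDGF receptors were highest in different stromal kinds. *Pdgfra*, the receptor that binds PDGF-A and PDGF-C homodimers and is a marker of fibroblasts (chr5:75152292-75198215, plus strand, GRCm38), was highest in Scara5 fibroblast-like nuclei, at 5.21 (4.35 to 6.20, 128 UMIs) in the female and 4.58 (3.88 to 5.36, 154 UMIs) in the male library. At least 1 UMI was seen in 56.6% and 46.2% of these nuclei as sequenced, and in 36.1% and 30.6% after thinning each nucleus to 1000 UMIs. In neuron-like nuclei, which should lack the gene, the shares were 6.94% and 4.24% as sequenced and 1.63% and 0.624% thinned. The median nucleus had 1858 and 1816 UMIs in the Scara5 kind and 5732 and 7456 in neuron-like nuclei.

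The Scara5 kind stood apart from each of the 18 other kinds in the order of levels, with no overlap of intervals in either library. Runx2 fibroblast-like nuclei came next, at 2.78 (2.09 to 3.62) and 0.72 (0.29 to 1.48), followed by barrier fibroblast-like nuclei at 1.17 (0.926 to 1.46) and 1.06 (0.854 to 1.30). These neighbours were not separate in both libraries, since in the male library the barrier kind stood above the Runx2 kind and their intervals overlapped. Perineurial cell-like nuclei held 0.503 and 0.313 and mural cell-like nuclei 0.328 and 0.294, the latter from 3 UMIs in each library. In all glia-like nuclei the level was 0.175 (0.129 to 0.233) and 0.16 (0.124 to 0.204), with Pou3f1 Schwann-like nuclei the highest of the glial kinds at 0.39 and 0.424. Neuron-like nuclei held 0.0786 and 0.043. The glia-like kinds that stood above neurons in *Pdgfra* also held more of the 12 fibroblast markers, which summed to 7.37 to 29.4 and 5.39 to 17 over the 5 glia-like kinds and to 1.25 to 3.41 and 1.14 to 3.34 over 7 kinds of neurons, and their part in the result was not tested. *Pi16* and *Clec3b* of that list had 0 UMIs in at least 1 glia-like kind of each library.

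Set against all other fibroblast-like nuclei, the Scara5 kind was higher in *Pdgfra* by log2 2.24 (1.89 to 2.58) and 2.62 (2.27 to 2.98). It was the only one of 9 receptors tested that was at least 2-fold higher there, where 3.14% of all genes were, and none was at least 2-fold lower, against 5.65%. The Scara5 kind is the one where *Pdgfra* was highest, so this call restates the order of levels and is no test of it. The summed level of the 12 fibroblast markers, collagens and other matrix genes among them, was also highest in this kind, at 83.5 and 56.3.

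*Pdgfrb* encodes the receptor for PDGF-B and PDGF-D, which pericytes use to attach to vessels, and lies on chromosome 18. It was highest in mural cell-like nuclei, at 6.67 (5.10 to 8.57, 61 UMIs) and 4.21 (3.05 to 5.68, 43 UMIs). A UMI was seen in 55.8% and 67.4% of these nuclei, and in 48.8% and 41.9% after thinning, against 7.04% and 7.48% as sequenced and 0.984% and 0.877% thinned in neurons outside the Mrgprd kind. Median depths were 1945 and 2097 UMIs in mural cell-like nuclei and 5657 and 7211 in those neurons. No other kind overlapped with them in either library.

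Runx2 fibroblast-like nuclei followed at 1.67 and 1.13, barrier fibroblast-like nuclei at 1.39 and 1.33, and Cntf Schwann-like nuclei at 1.33 and 0.823. Scara5 fibroblast-like nuclei, where *Pdgfra* was highest, held 0.693 (0.403 to 1.11) and 0.476 (0.272 to 0.772) of *Pdgfrb*. Mural cell-like over fibroblast-like nuclei differed by log2 2.72 (2.26 to 3.14) and 2.25 (1.72 to 2.72) in *Pdgfrb*, and by -2.14 (-4.65 to -0.80) and -2.04 (-4.54 to -0.69) in *Pdgfra*. *Pdgfrb* was the 1 receptor of 9 tested that was at least 2-fold higher in mural cell-like nuclei, where 6.42% of all genes were. *Pdgfra*, *Lpar1* and *Tgfbr3* were at least 2-fold lower there, against 5.6% of all genes.

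**Figure D2:**
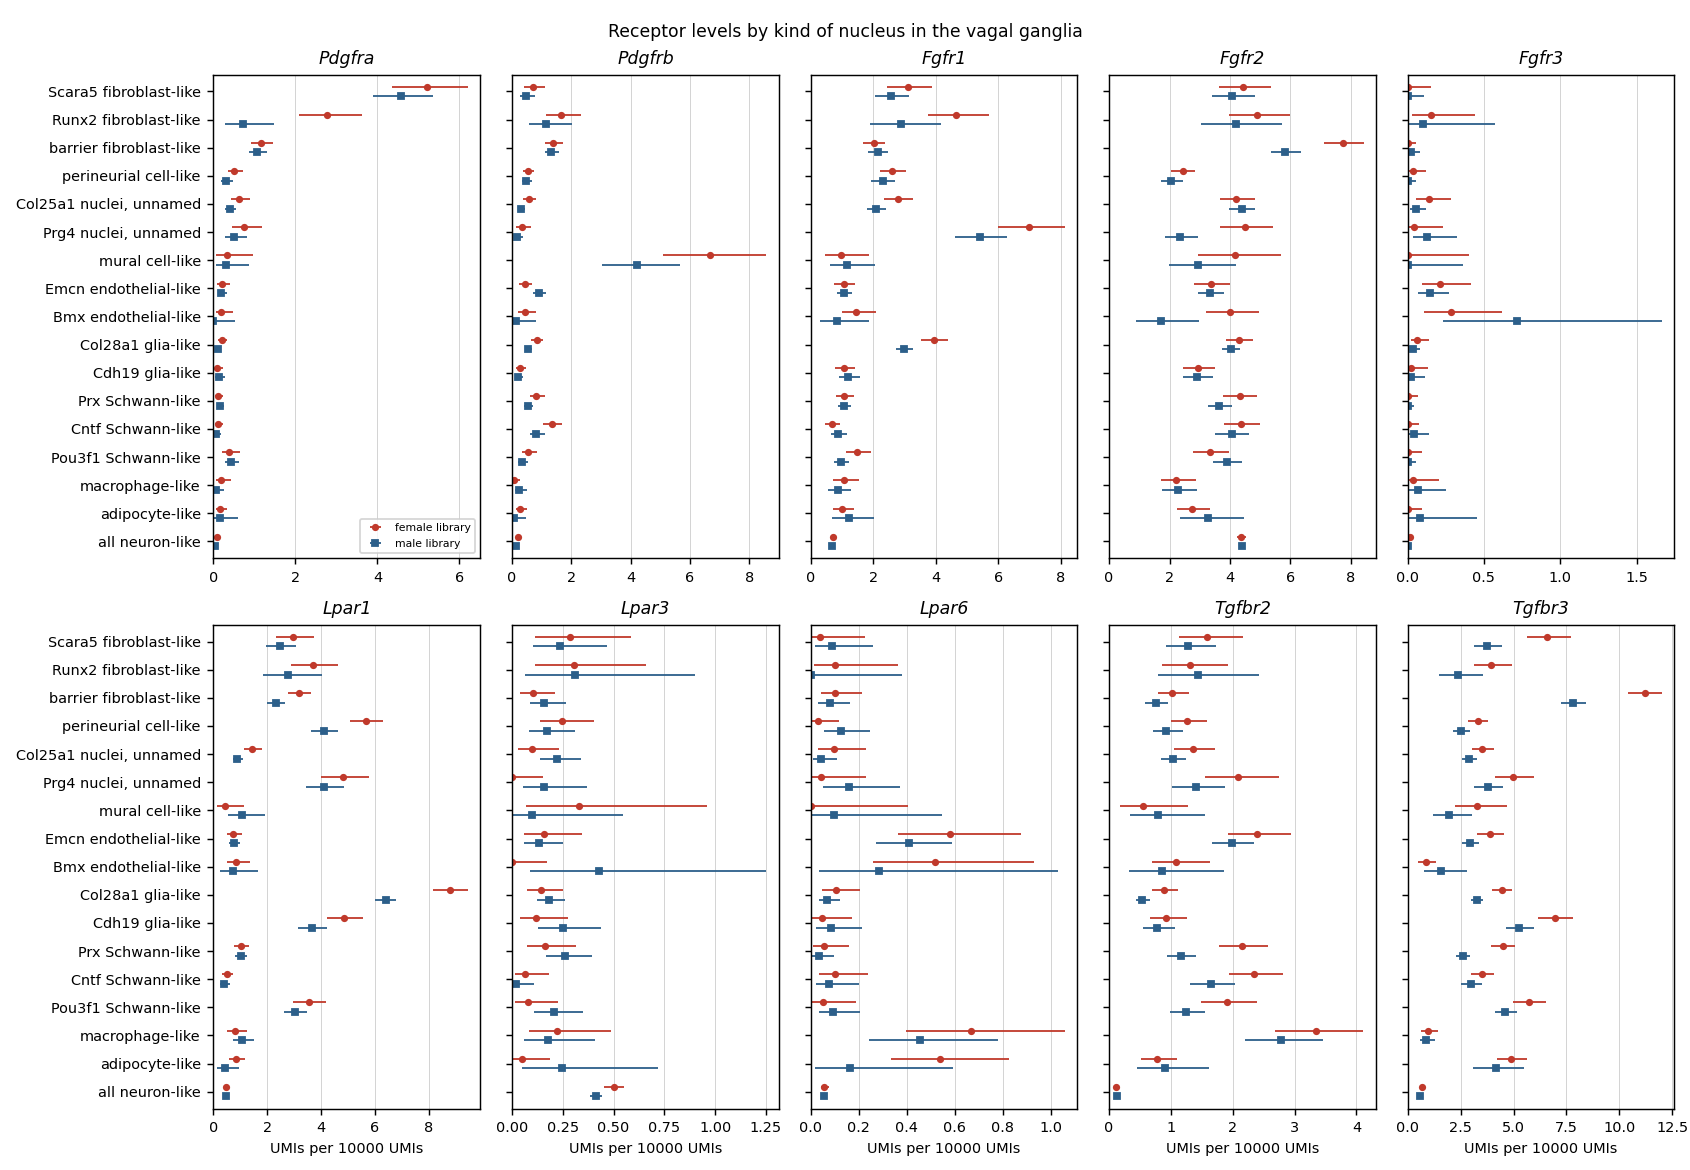
UMIs of each receptor per 10000 UMIs (horizontal axes, each on its own linear scale from 0) in 17 kinds of nuclei (vertical axis), with circles for the female and squares for the male library and bars for exact Poisson 95% intervals. Pdgfra was highest in Scara5 fibroblast-like nuclei (5.21 and 4.58), Pdgfrb in mural cell-like nuclei (6.67 and 4.21), Lpar1 in Col28a1 glia-like nuclei (8.79 and 6.40) and Tgfbr3 in barrier fibroblast-like nuclei (11.2 and 7.82).

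Among neurons, *Pdgfrb* stood higher in the Mrgprd kind than in the other neurons pooled, which also held it. Mrgprd neurons held 0.855 (0.676 to 1.07, 78 UMIs) and 0.589 (0.482 to 0.711, 107 UMIs), against 0.101 (0.0793 to 0.128) and 0.0996 (0.085 to 0.116) in the other neurons. The log2 folds were 3.08 (2.60 to 3.56) and 2.57 (2.20 to 2.92). The summed level of the 10 mural cell markers was 0.482 and 0.677 in Mrgprd neurons, 0.166 to 0.63 and 0.168 to 0.691 over 6 other kinds of neurons, and 45.7 and 39.6 in mural cell-like nuclei. In the female Mrgprd neurons *Cspg4*, *Des*, *Higd1b* and *Kcnj8* of that list had 0 UMIs, and in the male ones *Higd1b* did.

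Of the FGF receptors, *Fgfr1* stood highest in unnamed stromal, fibroblast-like and Col28a1 glia-like nuclei. *Fgfr2* was found in every kind in the order of levels, and *Fgfr3* was close to absent. *Fgfr1* (chr8:25513654-25575718, plus strand), the FGF receptor common to mesenchyme, was highest in the unnamed Prg4 nuclei, at 6.99 (5.97 to 8.13, 168 UMIs) and 5.40 (4.62 to 6.27, 170 UMIs). These 68 female and 99 male nuclei were led by *Prg4*, which encodes lubricin, and held *Cldn11* among their leading genes. In them 5 of the 6 barrier fibroblast markers were raised at least 1.5-fold. The cluster stayed unnamed because another marker list had more genes among its 10 leading genes. A UMI of *Fgfr1* was seen in 83.8% and 69.7% of the Prg4 nuclei, and in 44.1% and 32.3% after thinning, where neuron-like nuclei had 5.77% and 6.67%. No kind of nucleus is taken to lack *Fgfr1*, *Lpar1* or *Tgfbr3*, so for these the neuron-like share stands in for background.

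Over fibroblast-like nuclei, the Prg4 nuclei were higher in *Fgfr1* by log2 1.39 (1.12 to 1.64) and 1.23 (0.97 to 1.49). *Fgfr1* was the 1 receptor of 9 at least 2-fold higher in this comparison, against 2.57% of all genes, while *Pdgfra* and *Pdgfrb* were at least 2-fold lower, against 3.63%. The Prg4 nuclei are the kind where *Fgfr1* was highest, so its call restates the order of levels and is no test. Runx2 fibroblast-like nuclei came next with 4.65 and 2.88 and Col28a1 glia-like nuclei with 3.94 (3.52 to 4.39) and 2.99 (2.73 to 3.27). The intervals of the Runx2 and Col28a1 kinds overlapped in both libraries. Scara5 fibroblast-like nuclei held 3.10 and 2.56.

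Glial kinds differed from one another in *Fgfr1*. Cdh19 glia-like nuclei, the other non-myelinating kind, held 1.06 (0.776 to 1.42) and 1.21 (0.919 to 1.56), and the 3 Schwann-like kinds 0.678 to 1.48 and 0.881 to 1.07. Col28a1 over Cdh19 glia-like nuclei gave log2 1.87 (1.44 to 2.37) and 1.29 (0.91 to 1.72). *Pdgfrb* was the other receptor at least 2-fold higher in the Col28a1 kind, by 1.63 (0.76 to 2.75) and 1.31 (0.43 to 2.48), so that 2 of 9 receptors were higher and 0 lower, where 4.4% of all genes were higher and 2.05% lower. Neuron-like nuclei held 0.723 and 0.695 of *Fgfr1*, with Grm8 neurons the highest of the kinds with at least 20 nuclei at 1.27 and 1.68 and Mrgprd neurons the lowest at 0.318 and 0.358. The antisense gene *Gm16159* overlaps *Fgfr1*, and no source used here states how reads were divided between them.

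*Fgfr2* encodes the FGF receptor known from epithelia and, in other splice forms, from mesenchyme and glia. It was highest in barrier fibroblast-like nuclei, at 7.76 (7.11 to 8.45) and 5.84 (5.34 to 6.37), which was log2 1.21 (1.01 to 1.41) and 1.01 (0.81 to 1.22) over the other fibroblast-like nuclei. In the other kinds, with neurons as 1 kind, it lay between 2.23 and 4.90 in the female and between 1.71 and 4.41 in the male library. Neuron-like nuclei held 4.38 and 4.41 and macrophage-like nuclei 2.23 and 2.28. The gene model of *Fgfr2* limits what these values mean. One of its 27 transcripts in the GENCODE vM21 annotation is over 1 Mb long and stretches the gene to chr7:130162451-133123350 on the minus strand, while the others end at 130266263 and RefSeq gives 104.4 kb. The long span overlaps 30 protein-coding genes, 14 of them on the same strand, so intronic reads counted for *Fgfr2* may have come from other genes, and its level is uncertain.

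*Fgfr3*, a receptor known from astrocytes and cartilage (chr5:33721674-33737068, plus strand), had 107 UMIs in all nuclei. It was highest in Bmx endothelial-like nuclei, at 0.283 (0.104 to 0.617) and 0.713 (0.232 to 1.66), from 6 and 5 UMIs. Fibroblast-like nuclei held 5 and 3 UMIs and neuron-like nuclei 10 and 8. Although the fold over neurons passed 2-fold in both libraries, its intervals reached from log2 -0.69 to 2.89 and from -0.73 to 3.88, so a difference was not detectable at this depth.

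The LPA receptors had 3 separate patterns, in glia and perineurial cells, in 1 kind of neuron, and in macrophages and endothelium. *Lpar1* (chr4:58435255-58553898, minus strand), the first LPA receptor described, was highest in Col28a1 glia-like nuclei, at 8.79 (8.17 to 9.45, 737 UMIs) and 6.40 (6.01 to 6.80, 1029 UMIs). In these nuclei 84.1% and 74.1% held a UMI, and 58.3% and 42.5% did so after thinning, against 4.88% and 2.99% of neuron-like nuclei. The kind was separate from all 18 others.

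Perineurial cell-like nuclei came second for *Lpar1*, at 5.67 (5.09 to 6.29) and 4.10 (3.62 to 4.62), and were the highest of the fibroblast-like kinds. The Prg4 nuclei held 4.83 and 4.10 and Cdh19 glia-like nuclei 4.84 and 3.65, and these did not separate from the perineurial kind. Among Schwann-like nuclei, which carry genes of myelin, the levels spread widely. Pou3f1 Schwann-like nuclei, named for a factor of promyelinating cells, held 3.54 (2.97 to 4.18) and 3.02 (2.60 to 3.47). Their leading genes included *Cdh19*, *Rasgef1c* and *Lgi4*, which also led the Cdh19 glia-like kind. Their median depth was 3187 and 3635.5 UMIs, against 1579.5 and 1756 in the Cdh19 kind. The part of mixed nuclei in the receptor levels of the Pou3f1 kind was not tested. Prx Schwann-like nuclei held 1.03 (0.774 to 1.33) and 1.01 (0.811 to 1.24), and Cntf Schwann-like nuclei 0.493 (0.316 to 0.733) and 0.392 (0.239 to 0.605). The order of these 3 kinds was the same in both libraries, and their intervals did not overlap. Neuron-like nuclei held 0.475 and 0.477.

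*Lpar3* (chr3:146220963-146286186, plus strand), an LPA receptor known from the uterus, departed from the other receptors. Mrgprd neurons held 3.35 (2.99 to 3.75, 306 UMIs) and 2.84 (2.60 to 3.10, 517 UMIs), and the other neurons pooled 0.135 (0.109 to 0.165) and 0.145 (0.127 to 0.164). The log2 folds were 4.63 (4.30 to 4.98) and 4.29 (4.07 to 4.52). In the other 7 kinds of neurons the level lay between 0 and 0.206. No interval of another kind of neuron reached that of the Mrgprd neurons.

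Mrgprd neurons were named for *Mrgprd*, a receptor of itch and pain neurons, which stood at 1.18 (0.971 to 1.43) and 0.996 (0.856 to 1.15) in them. *Lpar3* was left out of the clustering that found them. A UMI of *Lpar3* was seen in 62.1% and 77.5% of Mrgprd neurons, and in 19.7% and 19.2% after thinning, against 4.53% and 4.17% of fibroblast-like nuclei as sequenced and 1.47% and 2.21% thinned. Median UMIs per nucleus differ widely between those with and without *Lpar3* among the Mrgprd neurons, at 14159 and 2845 in the female and 15041 and 6013 in the male library. *Pdgfrb* was seen in 63.4% of the 41 female Mrgprd neurons with *Lpar3* and 16% of those without, and in 59.1% of the 93 male ones with it and 37% of those without, a contrast that the difference in depth moves with and whose part in it was not tested.

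Outside neurons *Lpar3* was low, with no kind above 0.428. Fibroblast-like nuclei held 0.202 (0.141 to 0.281) and 0.184 (0.129 to 0.255), glia-like nuclei 0.119 (0.0817 to 0.169) and 0.189 (0.15 to 0.236), and macrophage-like nuclei 0.223 and 0.176. The 12 neuron markers summed to 13.1 to 23.9 in the female and 26.7 to 41.5 in the male library over the fibroblast-like, glia-like and mural cell-like kinds, and to 53.5 to 70.3 and 57.4 to 71.6 over 7 kinds of neurons. Of these markers *P2rx2* had 0 UMIs in at least 1 of the female kinds. Their part in the *Lpar3* level of these kinds was not tested. Of 9 receptors tested in Mrgprd over other neurons, *Lpar3* and *Pdgfrb* were at least 2-fold higher, against 4.44% of all genes, and *Fgfr1* was at least 2-fold lower, against 11.7%. Among neurons *Lpar3* was highest in the Mrgprd kind, so its call restates that and is no test.

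**Figure D3:**
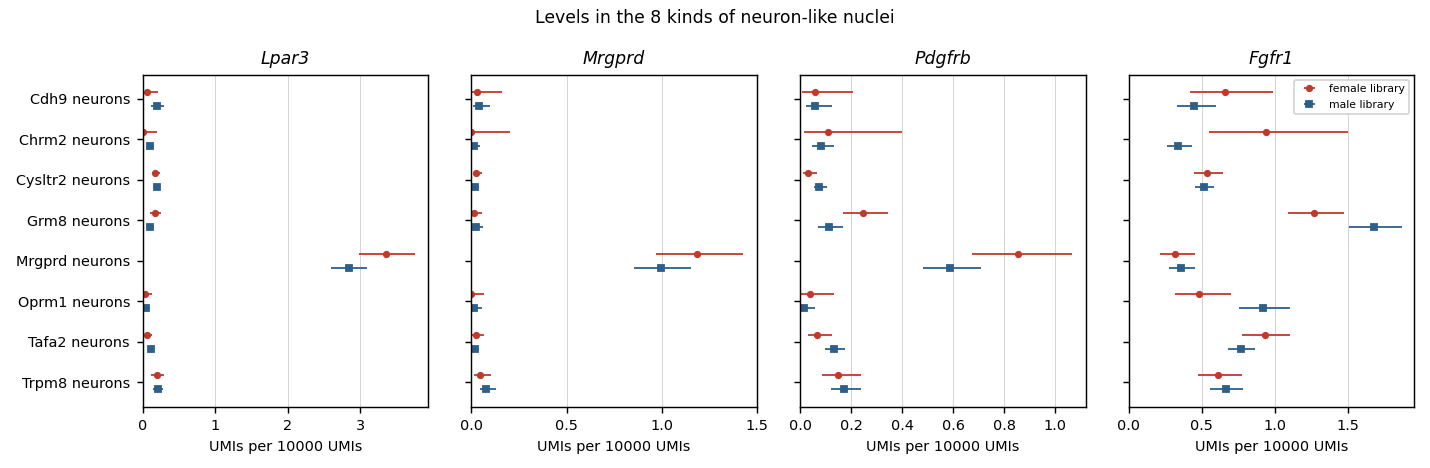
UMIs of Lpar3, Mrgprd, Pdgfrb and Fgfr1 per 10000 UMIs (horizontal axes, linear) in the 8 kinds of neuron-like nuclei (vertical axis), with circles for the female and squares for the male library and bars for exact Poisson 95% intervals. Lpar3 stood at 3.35 and 2.84 in Mrgprd neurons and at 0.206 or less in the others. The Chrm2 kind held 9 female nuclei.

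*Lpar6*, an LPA receptor known from hair follicles, was low in every kind, with 377 UMIs in all. Macrophage-like nuclei held 0.669 (0.397 to 1.06, 18 UMIs) and 0.457 (0.243 to 0.781, 13 UMIs), and Emcn endothelial-like nuclei 0.579 (0.363 to 0.876) and 0.408 (0.271 to 0.59). These 2 did not separate from each other. Fibroblast-like nuclei held 0.0692 and 0.0922, glia-like nuclei 0.0784 and 0.068 and neuron-like nuclei 0.0574 and 0.0544, with overlapping intervals. The gene (chr14:73237895-73243294, plus strand) lies inside *Rb1* on the other strand. If counting did not use strand, reads of the *Rb1* introns and of *Lpar6* could not be told apart.

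The TGF-beta receptors differed in where they were highest, *Tgfbr2* in macrophage-like and *Tgfbr3* in barrier fibroblast-like nuclei. *Tgfbr2* (chr9:116084293-116175360, minus strand) encodes the kinase receptor that binds the ligand first and then recruits the type I receptor. It was highest in macrophage-like nuclei, at 3.35 (2.69 to 4.11, 90 UMIs) and 2.78 (2.20 to 3.46, 79 UMIs). Emcn endothelial-like nuclei followed at 2.39 (1.93 to 2.94) and 1.98 (1.66 to 2.34) and Cntf Schwann-like nuclei at 2.34 (1.93 to 2.81) and 1.65 (1.31 to 2.04), and the 3 did not separate from one another in both libraries.

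Within glia *Tgfbr2* was higher in the Schwann-like class, where *Lpar1* was lower. All Schwann-like nuclei held 2.14 (1.91 to 2.40) and 1.31 (1.15 to 1.47) of *Tgfbr2*, and non-myelinating glia-like nuclei 0.896 (0.738 to 1.08) and 0.589 (0.49 to 0.703). For *Lpar1* the same classes held 1.52 and 1.48 against 7.47 and 5.77. Fibroblast-like nuclei lay between, at 1.22 and 0.933 of *Tgfbr2*, and their kinds spread little, from 1.02 to 1.59 and from 0.751 to 1.44. Neuron-like nuclei held 0.111 (0.0891 to 0.137) and 0.121 (0.105 to 0.138), and none of their kinds exceeded 0.184.

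*Tgfbr3* (chr5:107106570-107289629, minus strand) encodes betaglycan, the co-receptor that presents TGF-beta to the kinases. It was highest in barrier fibroblast-like nuclei, at 11.2 (10.4 to 12, 756 UMIs) and 7.82 (7.25 to 8.43, 687 UMIs), and this kind was separate from the 18 others. A UMI was seen in 85.1% and 77.9% of the nuclei, and in 60.4% and 51% after thinning, against 6.07% and 5.49% of neuron-like nuclei. Over the other fibroblast-like nuclei the log2 folds were 1.42 (1.25 to 1.59) and 1.44 (1.24 to 1.63). *Tgfbr3* and *Fgfr2* were the 2 of 9 receptors at least 2-fold higher in this kind, where 4.99% of all genes were, and none was lower, against 4.82%. Both were highest in this kind in the order of levels, so their calls restate that order and are no test.

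Cdh19 glia-like nuclei came second for *Tgfbr3*, at 6.95 (6.18 to 7.79) and 5.26 (4.63 to 5.95), and Pou3f1 Schwann-like nuclei held 5.72 and 4.62. Scara5 fibroblast-like nuclei held 6.60 (5.62 to 7.70) in the female but 3.75 (3.12 to 4.46) in the male library. Mural cell-like nuclei held 3.28 (2.21 to 4.68) and 1.96 (1.20 to 3.03). Macrophage-like nuclei, where *Tgfbr2* was highest, held 0.966 (0.631 to 1.42) and 0.879 (0.569 to 1.30) of *Tgfbr3*. The level in neuron-like nuclei was 0.697 and 0.577, with Mrgprd neurons the highest kind at 1.21 and 1.05 and Oprm1 neurons the lowest at 0.166 and 0.12.

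In the order over 19 kinds, in which all neurons count as 1 kind, 9 of the 10 receptors were highest in the same kind in both libraries. *Lpar3* was the exception, since 3 UMIs in 20 male Bmx endothelial-like nuclei put that kind above the neurons. Over the broader classes 9 of 10 were also highest in the same class, with *Fgfr2* as the exception, highest in the fibroblast-like class of the female and the neuron-like class of the male library. With each nucleus counting the same, this number fell to 6 of 10. Across 50 profiles of kind and library, the receptors most alike in log2 level were *Fgfr1* and *Lpar1* (Pearson r 0.76) and *Tgfbr2* and *Tgfbr3* (0.74), and the least alike were *Fgfr2* and *Lpar6* (-0.42). The profiles share 2 libraries and differ in depth, and these values are descriptions.

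Among 13422 genes with at least 200 UMIs, the gene whose profile was most like that of *Pdgfra* was *Bicc1* (r 0.856), followed by *Abi3bp* (0.85) and *Egfr* (0.847). For *Pdgfrb* it was *Tpm1* (0.762), a tropomyosin, followed by *Il34* and *Myl9*. For *Fgfr1* it was *Pdpn* (0.804), followed by *Add3* (0.802) and *Gm16159* (0.789). The last of these is the antisense gene that overlaps *Fgfr1*, and the part of shared reads in its likeness was not tested. *Lpar1* was most like *Frmd6* (0.909), *Tgfbr2* most like *Dock1* (0.935), *Tgfbr3* most like *Lama2* (0.848), which encodes a laminin chain, and *Lpar6* most like *St8sia6* (0.818). *Lpar3* was most like *Mrgprd* (0.835), followed by *Ppp1r2* (0.755) and *Tmem233* (0.742). The highest r for *Fgfr2* was 0.61, with *Arhgap28*, and *Fgfr3* had too few UMIs to enter.

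Ligands and other genes of the same pathways were read from a list of 54 genes. The list was also chosen with earlier results of these data known, so its counts are descriptions. In fibroblast-like over neuron-like nuclei, 23 of the 51 tested were at least 2-fold higher in both libraries and 2 were lower, against 13.7% and 13.2% of all genes, and their median log2 fold was 1.12 against 0.18. In glia-like over neuron-like nuclei 21 were higher and 2 lower of 51, against 12.6% and 13.6% of all genes, with a median of 0.74 against 0.13. In mural cell-like over fibroblast-like nuclei 5 were higher and 6 lower of 45, against 6.42% and 5.6% of all genes, with a median of -0.24 against 0.04. The 5 higher were *Pdgfb*, *Pdgfc*, *Tgfb2*, *Tgfb3* and *Eng*. In the female mural cell-like nuclei, with 91413 UMIs of all genes, they stood at 0.109 to 0.438. These calls therefore rest on few UMIs. By pathway, the fibroblast-like nuclei were higher than neurons in 1 of 4 PDGF, 7 of 21 FGF, 3 of 5 LPA and 12 of 21 TGF-beta genes, to be read against the same 13.7%.

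Endothelial-like nuclei held the most of the *Pdgfrb* ligands. *Pdgfb*, the main ligand of *Pdgfrb*, was low in mural cell-like nuclei, at 0.109 and 0.49, and stood at 2.24 and 1.49 in Emcn endothelial-like nuclei. It was among the genes counted as higher in mural cell-like than in fibroblast-like nuclei, which held 0.0288 and 0.0461. *Pdgfd*, another ligand of the same receptor, was highest in Bmx endothelial-like nuclei, at 12.5 and 12.6, and stood at 5.05 and 3.51 in Emcn endothelial-like and at 3.06 and 2.25 in mural cell-like nuclei. It was higher in fibroblast-like than in neuron-like nuclei by log2 4.41 and 4.40, with 3.54 and 2.57 in the barrier kind and 0.163 and 0.0892 in the Scara5 kind. *Pdgfa* held 1.20 and 0.294 and *Pdgfc* 0.328 and 0.196 in mural cell-like nuclei.

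Of the FGF pathway, *Flrt2*, an adhesion protein that binds FGF receptors, held 8.01 and 7.63 in the barrier fibroblast-like nuclei where *Fgfr2* was highest, 11.6 and 7.30 in the Runx2 kind and 7.18 and 6.00 in perineurial cell-like nuclei. The ligand gene *Fgf1* held 2.43 and 2.78 there, and the inhibitors *Spred1* and *Spred2* 1.73 and 1.63, and 1.79 and 1.16. *Kl*, the klotho co-receptor, *Etv4*, a transcription factor induced by FGF, and *Spry1*, a feedback inhibitor, were each over 8-fold higher in fibroblast-like than in neuron-like nuclei, by log2 3.35 to 4.88. The barrier kind over the other fibroblast-like nuclei was at least 2-fold higher in 1 of 16 FGF genes, *Kl*, against 4.99% of all genes. It was at least 2-fold lower in 4, *Fgf7*, *Fgf10*, *Spry1* and *Etv4*, against 4.82%.

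Around *Lpar1* in Col28a1 glia-like nuclei, *Plpp3*, a phosphatase that degrades LPA, held 2.12 and 1.90 and *Plpp1* 0.573 and 0.615. *Enpp2*, which encodes autotaxin, held 0.31 and 0.18 there and *Lpar4* 0.0596 and 0.0373. *Plpp3* was over 8-fold higher in fibroblast-like than in neuron-like nuclei, by log2 3.39 and 3.12.

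In the barrier fibroblast-like nuclei where *Tgfbr3* was highest, the signal transducer *Smad3* held 2.27 and 2.22, *Tgfbr1*, the type I receptor, 2.01 and 1.23, *Smad4* 1.21 and 1.31 and the repressor *Ski* 1.26 and 1.04. *Ltbp1*, which holds latent TGF-beta in the matrix, *Smad3*, the target gene *Tgfbi*, and *Thbs1*, an activator of latent TGF-beta, were over 8-fold higher in fibroblast-like than in neuron-like nuclei, by log2 3.09 to 4.86. The barrier kind over the other fibroblast-like nuclei was at least 2-fold higher in 2 of 21 TGF-beta genes, *Eng* and *Smad3*, against 4.99% of all genes. It was at least 2-fold lower in 5, *Ltbp1*, *Ltbp2*, *Ltbp4*, *Tgfbi* and *Thbs1*, against 4.82%. *Itgb8*, an integrin chain that activates TGF-beta, and the repressor *Tgif1* were over 8-fold higher in glia-like than in neuron-like nuclei, by 3.87 and 3.38 and by 3.42 and 3.66.

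**Figure D4:**
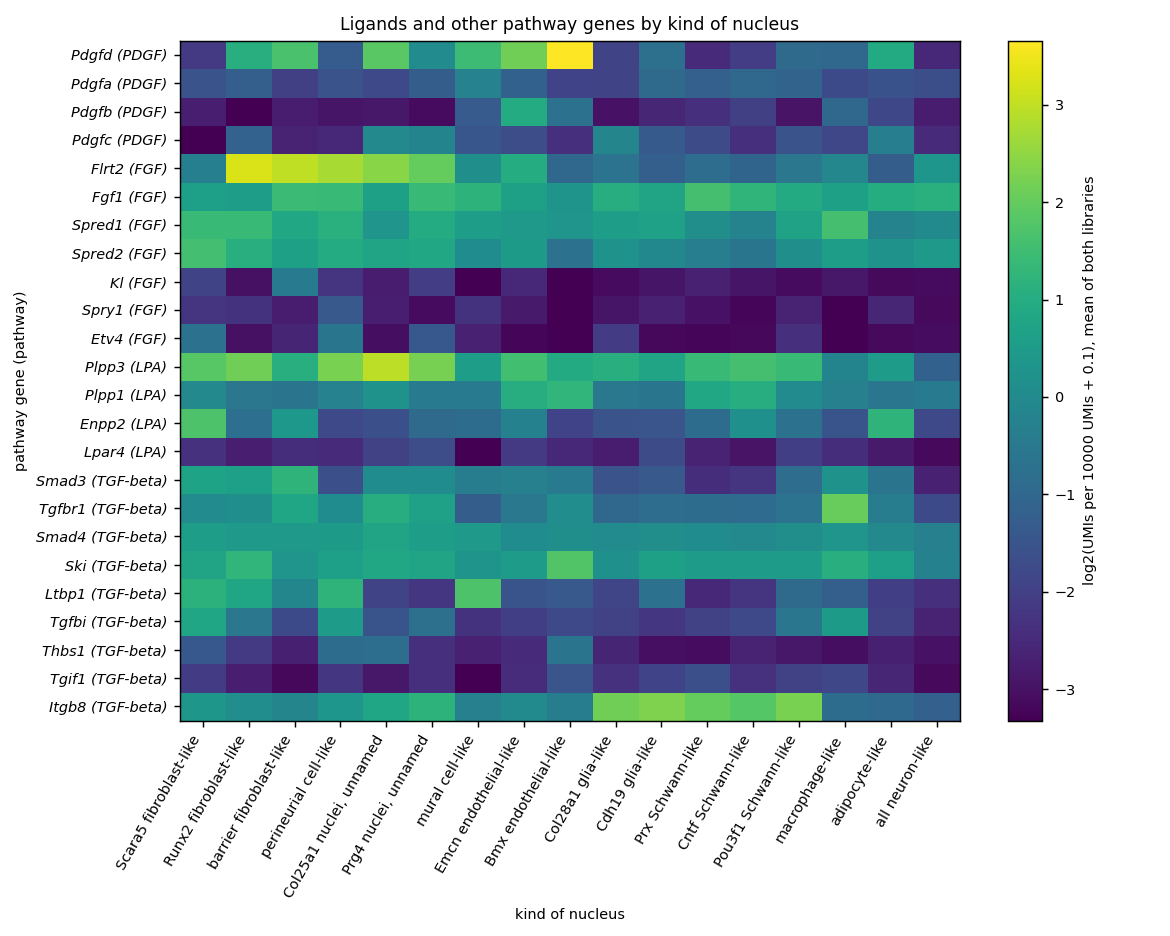
Named ligands and other genes of the 4 pathways (vertical axis) by kind of nucleus (horizontal axis), with colour for log2 of the UMIs per 10000 UMIs plus 0.1, as the mean of both libraries. Flrt2 was high in the barrier (8.01 and 7.63 per 10000 UMIs in the female and male library) and Runx2 (11.6 and 7.30) fibroblast-like nuclei and Pdgfb in Emcn endothelial-like nuclei (2.24 and 1.49).

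Between the libraries, most receptors were somewhat higher in the female one. In fibroblast-like nuclei 8 of the 9 receptors with at least 20 UMIs were higher in the female library, as were 53.4% of all genes, with a median log2 ratio of 0.27 against 0.04 over all genes. In glia-like nuclei 8 of 9 were higher, as were 51.5% of all genes, with a median of 0.21 against 0.02. In neuron-like nuclei 6 of 9 were higher, as were 47.6% of all genes, with a median of 0.08 against -0.02. None of the 9 was 2-fold apart in these 3 classes, where 2.75%, 2% and 1.38% of all genes were at least 2-fold higher in the female library and 5.02%, 2.66% and 2.37% in the male library.

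The ratios with intervals away from 0 in fibroblast-like nuclei were those of *Lpar1* at 0.47 (0.31 to 0.63), *Tgfbr3* at 0.44 (0.32 to 0.56), *Tgfbr2* at 0.39 (0.10 to 0.68), *Fgfr2* at 0.27 (0.13 to 0.41), *Pdgfra* at 0.27 (0.02 to 0.51) and *Fgfr1* at 0.22 (0.03 to 0.41). In glia-like nuclei they were *Tgfbr2* at 0.72 (0.52 to 0.93), *Pdgfrb* at 0.65 (0.36 to 0.93), *Tgfbr3* at 0.46 (0.35 to 0.57), *Lpar1* at 0.24 (0.13 to 0.35) and, higher in the male library, *Lpar3* at -0.67 (-1.31 to -0.05). In neuron-like nuclei *Pdgfra* stood at 0.87 (0.37 to 1.37), from 63 and 79 UMIs, *Pdgfrb* at 0.34 (0.04 to 0.63), *Lpar3* at 0.28 (0.11 to 0.46) and *Tgfbr3* at 0.27 (0.12 to 0.42). By the mean of the libraries, *Pdgfra* was lowest in neuron-like nuclei of the 19 kinds. Fibroblast markers summed to 1.25 to 3.41 and 1.14 to 3.34 over 7 kinds of neurons, and their part in the *Pdgfra* ratio was not tested. The kinds took different shares of a class in each library, with 9 of 677 female and 150 of 1603 male neuron-like nuclei in the Chrm2 kind and 95 of 684 and 43 of 815 fibroblast-like nuclei in the Runx2 kind, and the part of this in the ratios was not tested. The neuron markers in the stromal and glial kinds also differed between the libraries, with the ranges 13.1 to 23.9 and 26.7 to 41.5 given above, and their part in the ratios was not tested. The sexes were not tested, for want of a second library of either.

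**Figure D5:**
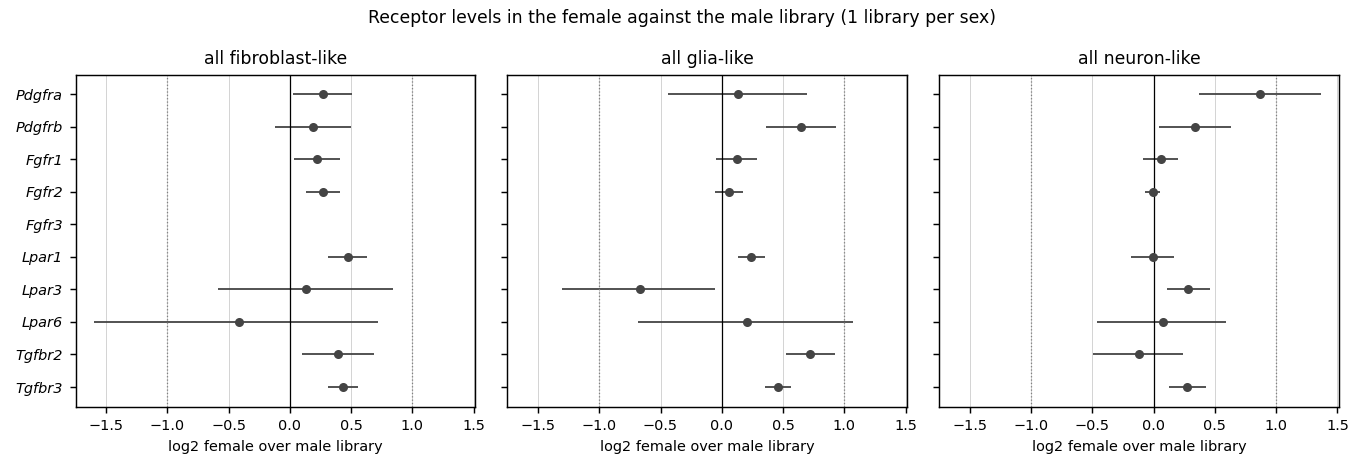
Log2 ratio of the level in the female over the male library (horizontal axis) for each receptor with at least 20 UMIs (vertical axis) in all fibroblast-like, glia-like and neuron-like nuclei, with bars for 95% intervals of counting error and dotted lines at 2-fold. All points lay within 2-fold, and Tgfbr2 in glia-like nuclei stood at 0.72.

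Single kinds held larger differences. *Pdgfra* in Runx2 fibroblast-like nuclei was higher in the female library by log2 1.95 (0.81 to 3.33), from 55 UMIs in 95 nuclei against 7 UMIs in 43 nuclei, and was the 1 of 7 receptors at least 2-fold higher there, as were 8.74% of all genes. The summed fibroblast markers in this kind were 63.0 and 43.5. *Pdgfrb* in Emcn endothelial-like nuclei was higher in the male library by log2 -1.10 (-1.99 to -0.29) as female over male, 1 of 8 receptors, as were 7.18% of all genes. The mural cell markers in those nuclei summed to 3.71 in the female nuclei and 6.60 in the male ones, and their part in the difference was not tested. Over all 61 pairs of a receptor and a class with at least 20 UMIs, 1 was 2-fold apart, *Lpar6* in adipocyte-like nuclei, from 21 UMIs in 86 female and 2 UMIs in 32 male nuclei, as 8.93% of all genes there were in the same direction. Its ratio of 1.72 had an interval from -0.31 to 4.86.

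The other receptors 2-fold apart in a single kind each had 22 UMIs or fewer in at least 1 library. In the female library *Fgfr2* was higher in Bmx endothelial-like nuclei (85 and 12 UMIs, with 9.15% of all genes higher), *Pdgfra* in Col28a1 glia-like nuclei (17 and 16 UMIs, 2.17%), *Fgfr1* in pituitary cell-like nuclei (38 and 13 UMIs, 6.96%) and *Pdgfrb* in Grm8 neurons (33 and 22 UMIs, 2.3%). *Pdgfra* was also higher there in Cysltr2 neurons (13 and 12 UMIs, 1.71%), in Tafa2 neurons (19 and 19 UMIs, 1.66%) and in granule cell-like nuclei (67 and 0 UMIs, 14.4%), of which 470 were female and 23 male. In the male library *Lpar3* was higher in Col25a1 nuclei (5 and 21 UMIs, 10.4%), in Cdh9 neurons (2 and 20 UMIs, 4.43%) and in granule cell-like nuclei (25 and 1 UMIs, 22.3%). *Pdgfrb* was higher in the male Cysltr2 neurons (7 and 36 UMIs, 2.91%) and *Lpar6* in the male Tafa2 neurons (3 and 26 UMIs, 2.91%). The ratio of *Pdgfrb* in Grm8 neurons was 1.13 (0.31 to 1.98) and that of *Pdgfra* in Tafa2 neurons 1.35 (0.35 to 2.34).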

How the data were processed

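Nuclei of vagus nerve ganglia pooled by sex were profiled with 10x Chromium. The UMI counts per gene, as the authors deposited them, were made with Cell Ranger 7.1.0 on mm10 with an added transgene sequence, introns included. They kept barcodes by DIEM debris score, genes and UMIs, and ran cellranger aggr over both libraries, which lowers the deeper library, so the deposited counts are not all those sequenced. The annotation release, the strand setting and how overlapping genes shared reads were not given in the sources used here. Barcodes carry a library number, and the sex of each library was taken from its number of nuclei, which the study states.

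The counts were clustered in Python 3.11.15 with scikit-learn 1.9.0 and leidenalg 0.10.2. Counts were scaled to the same total and logged, and 3000 variable genes, 30 components, 15 neighbours and resolution 1 were used, giving 31 clusters. The receptors, 54 pathway genes and 6 sex-linked genes were left out. Clusters were named from marker lists where at least 3 markers were raised at least 1.5-fold and the 10 leading genes did not go against the name. Scrublet, run in scanpy 1.11.5, called 0 female and 1 male doublets of 8714 nuclei and so did not work, and no nucleus was removed. The authors state that possible doublets had been removed. The resolution and the merging of related marker lists into families were set after the clusters were seen. The receptors and lists were chosen with earlier results of these data known.

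UMIs were summed over a kind and library and given per 10000 UMIs, with exact Poisson intervals, and shares with exact Clopper-Pearson intervals, both at 95% and for counting error only. A gene was called between classes where it passed 2-fold in the same direction in both libraries, with 0.5 UMIs added to each sum and at least 20 UMIs over the sums. Comparisons of single kinds were of kinds where a receptor was highest, among neurons for *Lpar3*. The call of that receptor restates the order of levels and is no test. A kind needed 20 nuclei in each library to enter the order of levels, and neighbours were separate where intervals did not overlap in either library. Of the pathway lists, the genes named are up to 4 a list with the highest level where the receptor of that list was highest, and those over 8-fold apart between classes. The 3 most alike genes were taken by Pearson correlation of log2 level plus 0.1. Calls and intervals were tested on simulated Poisson counts. These had no spread between nuclei or animals, so they checked the calculation and not how well the intervals fit these data. Coordinates are from GENCODE vM21 on GRCm38, the build of mm10. The alternatives tried were other clusterings, scalings, filters and folds.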

Additional observations from a re-analysis of the deposited data

Results flagged for a closer look

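*Fgfr3* in Schwann-like over neuron-like nuclei moved in opposite directions in the libraries, by log2 -1.89 in the female nuclei and 1.41 in the male nuclei with 0.5 UMIs added. The sums were 0 UMIs in Schwann-like and 10 in neuron-like female nuclei, and 2 and 8 in male nuclei. The difference was not tested.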

How the results depend on the processing

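Of the counts of receptors and pathway genes at least 2-fold higher, of pairs 2-fold apart between the libraries and of receptors highest in the same class, 55 of 58 values under other settings stayed within 1.5 times the reported one. The 3 that did not were the receptors higher in glia-like than in neuron-like nuclei, 3 at 4-fold in place of 2-fold, and the pairs of receptor and class 2-fold apart between the libraries, 5 with genes scaled within each library before clustering and 2 with each nucleus counting the same. The causes of the latter were not tested. The receptors higher in fibroblast-like nuclei numbered 5 at 4-fold and 6 or 7 otherwise, and those higher in glia-like nuclei 3 at 4-fold and 5 to 7 otherwise. Those highest in the same class in both libraries fell from 9 to 6 with each nucleus counting the same, at the limit of 1.5 times, and numbered 8 to 10 otherwise. The count of receptors lower than in neurons, which was *Lpar3* alone, fell from 1 to 0 for fibroblast-like nuclei with each nucleus counting the same, with nuclei over 2000 UMIs and at 4-fold, and for glia-like nuclei with each nucleus counting the same and at 4-fold. With each nucleus counting the same, the log2 folds of *Lpar3* were -0.80 and -1.21. The receptors lower in mural cell-like than in fibroblast-like nuclei fell from 3 to 1 at 4-fold. No log2 fold of a called receptor changed sign. The fold of *Lpar3* in Mrgprd over other neurons lay between 4.10 and 4.60, and that of *Pdgfra* in glia-like over neuron-like nuclei between 0.84 and 1.74. The value of 0.84, with each nucleus counting the same, is under 2-fold, so the call of *Pdgfra* was lost there. The Louvain clustering gave no mural cell-like cluster, so the mural comparison has no value there. The clustering at resolution 2 and the count of both unnamed stromal clusters as fibroblast-like were chosen after seeing the data. No paired analysis was possible because each sex has 1 library. Low genes such as *Fgfr3* and *Lpar6* are limited by depth.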
